A study of Mus musculus with 4 samples.

Results

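The messages of 10 genes, out of 19737 in the deposited single-cell table, were followed in mouse microglia 1 day after antibody dosing. The genes were listed together as FOXO-linked quiescence and antiproliferative genes, and that link was not tested for each gene here. They are Foxo1, Foxo3, Sesn1, Txnip, Klf2, Klf6, Btg1, Btg2, Pik3ip1 and Rb1cc1, and they were taken by symbol, from a list made with earlier results of these data known. Each symbol was found once, and all 10 genes passed the filter on low counts. ATV:4D9 is an antibody that activates TREM2 and carries a transport vehicle that binds the human transferrin receptor (TfR). 4D9 is the same TREM2 antibody without that vehicle, and ATV:ISO is the control arm. Its deposited name is ATV-DNP02, and the reading of that name as the isotype is an assumption. There were 5 groups of 4 mice on a C57BL/6J background, each mouse dosed once by the intravenous route at 10 mg/kg. The 2 groups of genotype WT;TfRmu/hu, called WT below, received ATV:ISO and ATV:4D9. The 3 groups of genotype AppSAA;TfRmu/hu, called AppSAA below, received ATV:ISO, 4D9 and ATV:4D9. All 5 groups carried the human apical domain knocked into the mouse TfR, and the AppSAA mice were homozygous for the knocked-in App allele. The reporting summary lists an AppSAA entry of male mice aged 8 months and WT;TfRmu/hu mice of mixed sex aged 2 to 8 months, so the age of the WT mice here is unclear. By the deposited annotation 1 mouse, the WT mouse of pool 4 given ATV:ISO, was female and the others were male. Sorted CD11b+ brain cells were tagged by mouse and loaded in 4 pools, each holding 1 mouse of every group, so that mice of a pool are paired.

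FOXO factors stand at the end of the PI3K and AKT pathway. Growth factor signals activate AKT, which phosphorylates FOXO proteins and keeps them out of the nucleus, and when the signal falls they return and switch on genes of cell cycle arrest, stress resistance and autophagy. Microglia in the undisturbed adult brain seldom divide, and TREM2 signals through DAP12, SYK and PI3K, so the pathway lies downstream of the receptor that ATV:4D9 binds. The activity of a FOXO protein depends on where it is in the cell, which RNA counts do not show.

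Promoter sequence of the genes was searched for 4 short motifs, because the genes were grouped by their link to one family of transcription factors. RefSeq promoters on GRCm38.p6 were at hand for 9 of the 10 genes, and 250 bases before each start site were searched on both strands. The motifs were the FOXO site GTAAACA, the cyclic AMP response element (CRE) TGACGTCA, the E-box CACGTG that MondoA and Myc partners bind, and the CArG box of serum response factor. The FOXO motif was found in Btg1 and Txnip, the CRE in Btg2 and the E-box in Klf6, while no CArG box was found. Of 32851 promoters searched in the same way, 3.17% held the FOXO motif, 1.55% the CRE, 6.02% the E-box and 1.47% the CArG box. A match is a string of letters and not a measured binding site. The 60-base stretches below hold the 4 matches, with the motif in capitals. Those of Btg1 (chr10:96616770-96616829, plus strand), Klf6 (chr13:5861419-5861478, plus strand) and Txnip (chr3:96557809-96557868, plus strand) are shown with that of Btg2 (chr1:134079288-134079347, minus strand), each along the strand of its gene. The Btg1 motif reads as its reverse complement.
Txnip: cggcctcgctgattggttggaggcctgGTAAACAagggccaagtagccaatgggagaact
Btg1: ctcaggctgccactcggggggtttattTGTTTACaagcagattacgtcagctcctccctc
Btg2: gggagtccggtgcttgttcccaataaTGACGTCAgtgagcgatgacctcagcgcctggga
Klf6: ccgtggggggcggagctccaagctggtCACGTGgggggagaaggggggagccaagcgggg

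The table held 74758 cells, with 2193 to 6126 cells and 17150296 to 102446549 UMIs per mouse. UMIs are unique molecular identifiers, that is, counted RNA molecules. The mean number of UMIs per cell was 8612 ± 711 in WT mice given ATV:ISO and 16780 ± 1725 with ATV:4D9, and it was 11520 ± 860, 11926 ± 1656 and 17116 ± 1283 in AppSAA mice given ATV:ISO, 4D9 and ATV:4D9 (mean ± SD, n = 4). Levels are therefore given on 2 scales below. CPM is the UMIs of a gene per 1000000 UMIs of the mouse, scaled with TMM factors, and so a level relative to the other genes. UMIs per cell are the UMIs of the gene divided by the number of cells. Barcode sequences found in more than 1 pool numbered 543 and belonged to 1.46% of cells. The 9 microglia markers were detected and summed to between 17043 and 26609 CPM in every mouse. Of the other cell types, the 6 neuron markers summed to at most 1.88 CPM, the 7 T and NK cell markers to at most 2.38 CPM and the 5 monocyte markers to between 4.39 and 14.5 CPM in a mouse, and 1 of the 5 B cell markers had no UMI at all, with Ighm (mean 215 CPM) making up most of their sum of 192 to 289 CPM. The 6 border macrophage markers summed to 10.7 to 34.2 CPM, the 6 neutrophil markers to 5.36 to 22.9 CPM and the 6 oligodendrocyte markers to 76.4 to 113 CPM. Some of these sums moved with ATV:4D9. The monocyte markers went from between 4.39 and 10.2 to between 11.8 and 14.5 CPM in AppSAA mice. By cluster their mean was highest in cluster 5 (32.7 CPM). The 7 endothelial and mural markers, 5 of them under a mean of 1 CPM, went from between 17.5 and 22.9 CPM to between 10.1 and 12.99 CPM in WT mice and from between 40.03 and 51.4 to between 15.8 and 28.1 CPM in AppSAA mice, and the 5 astrocyte markers, mostly Slc1a3 (mean 95.6 CPM), went from between 127 and 144 to between 64.1 and 73.7 CPM in WT mice. The microglia markers themselves had a mean of 24793 CPM with ATV:ISO and 18480 CPM with ATV:4D9 in WT mice. The part of these lists in the results was not tested. The authors' 6 clusters carry numbers and no names, and their shares moved with treatment. Clusters 0 and 3 held 60.4% ± 2.60 and 35.8% ± 2.56 of the cells of WT mice given ATV:ISO against 3.11% ± 1.01 and 4.56% ± 0.917 with ATV:4D9, and clusters 2 and 4 then held 47.8% ± 3.48 and 40.0% ± 4.44 (SD, n = 4). Because counts are summed over all cells of a mouse, a change in the share of a kind of cell and a change in the RNA of each cell cannot be told apart in these sums.

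All 10 genes held a smaller share of the RNA with ATV:4D9 than with ATV:ISO in WT mice, with folds between 1.48 for Btg2 and 5.74 for Pik3ip1. Each gene was lower with ATV:4D9 in all 4 pools, and the ranges of the groups did not overlap for any of the 10, whereas among all genes tested 27.6% lay lower and 27.9% higher without overlap. Of the 14058 genes tested, 32.5% were called lower and 30.8% higher in this contrast (edgeR's quasi-likelihood test with Benjamini-Hochberg adjustment, called at an adjusted p under 0.05). The median log2 fold change was -0.93 over the 10 genes and -0.05 over all genes. In AppSAA mice all 10 were again lower with ATV:4D9 than with ATV:ISO, by 1.22-fold (Txnip) to 2.12-fold (Pik3ip1), against 27.1% of all genes called lower and 27.9% higher. The median over the 10 was -0.64 there, against -0.03 over all genes. Ranges did not overlap for 7 of them, against 22.9% of all genes lower and 24.7% higher without overlap, and those of Klf2, Btg1 and Btg2 did. These are levels in CPM, and counted per cell 9 of the 10 genes were not called in either genotype. With the pool as a block, 3 were lower and 2 higher per cell in WT mice, against 4.26% and 78.5% of all genes in that fit, and 5 lower and 2 higher in AppSAA mice, against 6.91% and 67.7%. In CPM without the cells of cluster 3, Klf2 in both genotypes, Btg2 in WT mice and Txnip in AppSAA mice were called higher with ATV:4D9 instead, and Klf6 in WT mice was on the higher side and not called.

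**Figure D1:**
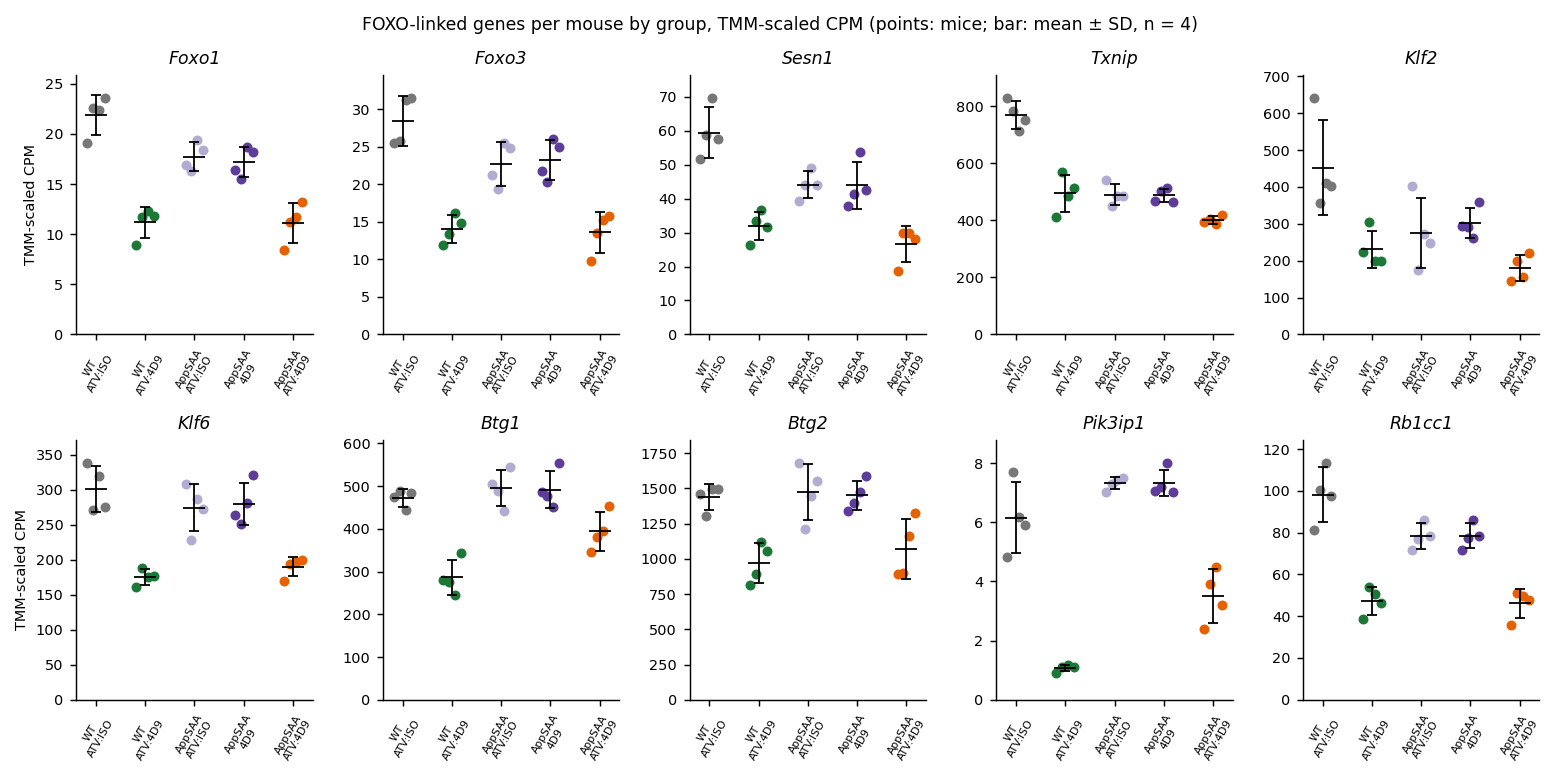
CPM of each of the 10 genes in every mouse (points, 4 per group) with the group mean ± SD, 1 panel per gene, each with its own linear axis. In every panel the WT mice given ATV:4D9 lie below the WT mice given ATV:ISO without overlap, from 0.918 to 1.18 CPM against 4.82 to 7.72 CPM for Pik3ip1. CPM is relative to the other genes, and counted per cell the means of Txnip, Klf6, Btg1 and Btg2 lay on the other side, as did the fitted changes of Klf2, Klf6 and Btg2 in CPM without the cells of cluster 3.

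In CPM the FOXO factors themselves fell in parallel. Foxo1 (chromosome 3, 52268336 to 52353221, plus strand, mm10) stood at 19.1, 22.6, 22.4 and 23.6 CPM in WT mice given ATV:ISO (pools 1 to 4) and at 8.93, 11.7, 12.3 and 11.8 CPM with ATV:4D9. In AppSAA mice it stood at 16.9, 16.3, 19.4 and 18.4 CPM with ATV:ISO, at 16.4, 15.5, 18.7 and 18.2 CPM with 4D9, and at 8.38, 11.3, 11.7 and 13.2 CPM with ATV:4D9. The mice given ATV:4D9 of both genotypes were thus the 8 lowest of the 20, with the mouse of pool 1 lowest in each group. Foxo1 was 1.96-fold lower with ATV:4D9 in WT mice (log2 fold change -0.97 ± 0.12, SE, adjusted p = 8.34e-07) and 1.60-fold lower in AppSAA mice (-0.67 ± 0.12, adjusted p = 9.08e-05). Counted per cell, its means with ATV:ISO and ATV:4D9 were 0.211 and 0.194 UMIs in WT mice and 0.201 and 0.178 in AppSAA mice. Those ranges overlapped, and neither difference was called without the pool as a block. With the block the difference in AppSAA mice was called (edgeR, adjusted p = 0.0276) and that in WT mice was not. Foxo1 shares its locus with Gm38034 on the same strand, so reads of the stretch they share are uncertain.

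Foxo3 (chromosome 10, 42181841 to 42276755, minus strand) read 25.5, 25.8, 31.2 and 31.5 CPM in WT mice given ATV:ISO and 11.9, 13.3, 16.2 and 14.8 CPM with ATV:4D9. In AppSAA mice the values were 21.3, 19.3, 25.6 and 24.8 CPM with ATV:ISO, 21.7, 20.3, 26.0 and 25.0 CPM with 4D9 and 9.75, 13.5, 15.3 and 15.8 CPM with ATV:4D9. As for Foxo1, the mice given ATV:4D9 lay below all others and those of the 2 genotypes overlapped. The fall was 2.03-fold in WT mice (-1.02 ± 0.14, adjusted p = 2.4e-06) and 1.68-fold in AppSAA mice (-0.75 ± 0.14, adjusted p = 0.000122). Per cell the means with ATV:ISO and ATV:4D9 were 0.276 and 0.245 UMIs in WT mice and 0.259 and 0.218 in AppSAA mice. These overlapped and were not called without the block. Over the 20 mice the log2 CPM of Foxo1 and Foxo3 still had a correlation of 0.909 after group means were removed. The mice share pools and depth, and no test was made of it.

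Pik3ip1 (chromosome 11, 3330401 to 3342971, plus strand), a membrane protein that binds and restrains the PI3K catalytic subunit, was the gene of the 10 with the widest difference. It held 4.82, 7.72, 6.20 and 5.92 CPM in WT mice given ATV:ISO and 0.918, 1.09, 1.18 and 1.11 CPM with ATV:4D9. These values rest on 87 to 192 and on 63 to 91 UMIs per mouse. In AppSAA mice it held 7.04, 7.31, 7.43 and 7.51 CPM with ATV:ISO, 7.07, 7.21, 7.99 and 7.04 CPM with 4D9 and 2.40, 3.92, 4.49 and 3.19 CPM with ATV:4D9, from 166 to 567 UMIs per mouse. The AppSAA mice given ATV:4D9 lay between the 2 WT groups without overlapping either. Pik3ip1 fell 5.74-fold in WT mice (-2.52 ± 0.17, adjusted p = 8.1e-11) and 2.12-fold in AppSAA mice (-1.08 ± 0.15, adjusted p = 4.26e-06).

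Among the stress and metabolic genes, Sesn1 (chromosome 10, 41809935 to 41908424, plus strand) encodes a sestrin, an inhibitor of mTORC1 that acts on the GATOR2 complex. Sesn1 levels were 51.6, 58.6, 69.6 and 57.7 CPM in WT mice given ATV:ISO and 26.4, 33.3, 36.5 and 31.6 CPM with ATV:4D9. In AppSAA mice they were 39.3, 44.1, 49.1 and 44.1 CPM with ATV:ISO, 37.8, 41.4, 53.7 and 42.4 CPM with 4D9 and 18.7, 29.7, 30.0 and 28.2 CPM with ATV:4D9. The WT mice given ATV:ISO lay above the AppSAA mice given the same antibody, and the mouse of pool 1 was the lowest in all 5 groups. Sesn1 overlaps 9930024M15Rik on the same strand, so reads of that stretch are uncertain. Sesn1 fell 1.86-fold in WT mice (-0.89 ± 0.14, adjusted p = 1.4e-05) and 1.66-fold in AppSAA mice (-0.73 ± 0.14, adjusted p = 0.000188). Per cell the means with ATV:ISO and ATV:4D9 were 0.573 and 0.554 UMIs in WT mice and 0.501 and 0.425 in AppSAA mice. These overlapped and were not called without the block. With the block the difference in AppSAA mice was called (edgeR, adjusted p = 0.00199) and that in WT mice was not.

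Txnip (chromosome 3, 96557957 to 96561883, plus strand), an arrestin that binds thioredoxin and slows glucose uptake, measured 829, 784, 713 and 753 CPM in WT mice given ATV:ISO and 413, 569.6, 485 and 512 CPM with ATV:4D9. In AppSAA mice Txnip measured 540.4, 449.9, 484 and 486 CPM with ATV:ISO, 469, 505, 512 and 466 CPM with 4D9 and 393, 405, 387 and 418 CPM with ATV:4D9. The 4 WT mice given ATV:ISO stood apart above all 16 others, and the AppSAA mice given ATV:4D9 lay below the other AppSAA mice. The fall was 1.56-fold in WT mice (-0.64 ± 0.09, adjusted p = 1.88e-06) and 1.22-fold in AppSAA mice (-0.29 ± 0.08, adjusted p = 0.00672), while without the cells of cluster 3 it was not called in WT mice (-0.13) and was higher in AppSAA mice (0.24).

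The Krüppel-like factors are zinc finger transcription factors, and Klf2 (chromosome 8, 72319033 to 72321656, plus strand) holds lymphocytes in quiescence and restrains inflammatory activation of myeloid cells. Klf2 levels spread widely within groups. They were 641, 356, 411 and 402 CPM in WT mice given ATV:ISO and 223, 305, 199.9 and 199 CPM with ATV:4D9. In AppSAA mice they were 402, 176, 273 and 248 CPM with ATV:ISO, 294, 292, 262 and 359 CPM with 4D9 and 144, 200.2, 157 and 219.7 CPM with ATV:4D9. The AppSAA mouse of pool 2 given ATV:ISO fell inside the ATV:4D9 range, and in that pool alone Klf2 was higher with ATV:4D9. Klf2 was 1.95-fold lower in WT mice (-0.97 ± 0.22, adjusted p = 0.00068) and 1.52-fold lower in AppSAA mice (-0.61 ± 0.22, adjusted p = 0.0227), and without the cells of cluster 3 it was higher in both (1.02 and 0.67). The AppSAA call was lost without the ATV:ISO mouse of pool 1 (log2 fold change -0.37) and without the ATV:4D9 mouse of pool 1 (-0.51) or 3 (-0.55), and in cells with 1000 to 25000 UMIs (-0.47, adjusted p = 0.0718).

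Klf6 (chromosome 13, 5861482 to 5870394, plus strand), a factor of injury and inflammatory responses, read 337, 271, 319.6 and 276 CPM in WT mice given ATV:ISO and 161, 189, 175 and 176 CPM with ATV:4D9. The AppSAA values were 308, 229, 286 and 272 CPM with ATV:ISO, 264, 252, 281 and 320.4 CPM with 4D9 and 169.8, 194, 197 and 199.6 CPM with ATV:4D9. All 8 mice given ATV:4D9 lay below all 12 others. Klf6 fell 1.72-fold in WT mice (-0.78 ± 0.10, adjusted p = 1e-06) and 1.44-fold in AppSAA mice (-0.53 ± 0.10, adjusted p = 0.000151), and without the cells of cluster 3 it was called in neither (0.07 and -0.19).

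Btg1 and Btg2 belong to a family of antiproliferative proteins that tie mRNAs to the CCR4-NOT deadenylase, and Btg2 is also an early response gene. Btg1 (chromosome 10, 96617006 to 96622809, plus strand) was at 475, 489.6, 443 and 483 CPM in WT mice given ATV:ISO and at 281, 276, 245 and 344 CPM with ATV:4D9. In AppSAA mice it was at 506, 488, 442 and 544 CPM with ATV:ISO, at 486, 478, 450.1 and 553 CPM with 4D9 and at 346, 381, 396 and 453 CPM with ATV:4D9. In AppSAA mice the pool 4 mouse given ATV:4D9 reached into the control range, yet within each pool the ATV:4D9 mouse was the lowest of the 3. The fall was 1.65-fold in WT mice (-0.72 ± 0.10, adjusted p = 3.34e-06) and 1.26-fold in AppSAA mice (-0.33 ± 0.10, adjusted p = 0.00895), the last not called in cells with 1000 to 25000 UMIs (-0.21, adjusted p = 0.0927) or without the cells of cluster 3 (-0.20).

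Btg2 (chromosome 1, 134075170 to 134079120, minus strand) stood at 1458, 1307, 1496 and 1499.7 CPM in WT mice given ATV:ISO and at 814, 893, 1117 and 1058 CPM with ATV:4D9. In AppSAA mice Btg2 stood at 1678, 1212, 1449.8 and 1554 CPM with ATV:ISO, at 1343, 1399, 1474 and 1586 CPM with 4D9 and at 893, 897, 1166 and 1329 CPM with ATV:4D9. With ATV:4D9 the mice of pools 3 and 4 were above those of pools 1 and 2 in both genotypes. Btg2 was 1.48-fold lower in WT mice (-0.57 ± 0.13, adjusted p = 0.000657) and 1.38-fold lower in AppSAA mice (-0.46 ± 0.13, adjusted p = 0.00491), while without the cells of cluster 3 it was higher in WT mice (0.66) and not called in AppSAA mice (-0.01).

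Rb1cc1 (chromosome 1, 6206197 to 6276648, plus strand) encodes FIP200, the scaffold of the ULK1 complex that starts autophagy. Its levels were 81.2, 100.3, 113 and 97.6 CPM in WT mice given ATV:ISO and 38.4, 53.9, 50.6 and 46.5 CPM with ATV:4D9. In AppSAA mice they were 71.6, 77.1, 86.2 and 78.5 CPM with ATV:ISO, 71.7, 77.4, 86.2 and 78.2 CPM with 4D9 and 35.8, 51.1, 49.8 and 47.6 CPM with ATV:4D9. The mice given ATV:4D9 again lay below all others. Rb1cc1 fell 2.07-fold in WT mice (-1.05 ± 0.12, adjusted p = 2.3e-07) and 1.70-fold in AppSAA mice (-0.77 ± 0.12, adjusted p = 1.88e-05). Per cell the means with ATV:ISO and ATV:4D9 were 0.948 and 0.818 UMIs in WT mice and 0.889 and 0.734 in AppSAA mice. These overlapped and were not called without the block.

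Whether the transport vehicle made a difference in AppSAA mice was asked by setting 4D9 beside both other arms. None of the 10 genes was called for 4D9 against ATV:ISO, with log2 fold changes from -0.04 (Foxo1) to 0.14 (Klf2), and every pair of ranges overlapped, as for all genes but 0.349% lower and 0.341% higher. The background was 0.0% lower and 0.0% higher, that is 0 of 14058 genes by edgeR, with 79 genes at an unadjusted p under 0.05 and none of the 10 among them. DESeq2 called 1 gene, Trap1a, which is not one of the 10 and is named after its value was seen, and limma-voom called 0. The SE of these fold changes ran from 0.08 (Txnip) to 0.22 (Klf2), so that small differences would not have been detectable. With ATV:4D9 all 10 genes were lower than with 4D9, where 26.7% of all genes were called lower and 27.6% higher, and the ranges overlapped for Btg1 only, while 22.9% of all genes lay lower and 24.0% higher without overlap. The median was -0.68 over the 10 genes and -0.03 over all genes. The differences ran from 1.22-fold for Txnip (-0.28 ± 0.08, adjusted p = 0.00788) to 2.12-fold for Pik3ip1 (-1.08 ± 0.15, adjusted p = 4.66e-06), and the gene was lower with ATV:4D9 in 4 of 4 pools in each case. The Btg1 call was lost in cells with 1000 to 25000 UMIs (-0.21, adjusted p = 0.102) and without the cells of cluster 3 (-0.18, adjusted p = 0.159), where Txnip was called higher (0.23) and Klf2 and Btg2 were on the higher side and not called. The 2 comparisons of ATV:4D9 share the same ATV:4D9 mice.

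The effect of the AppSAA genotype under ATV:ISO was uneven over the 10 genes. Sesn1, Txnip, Klf2 and Rb1cc1 were lower in AppSAA mice, 4 of 10 against 13.7% of all genes lower and 14.4% higher, and none was higher. Txnip was 1.57-fold lower (-0.65 ± 0.09, adjusted p = 7.02e-06) and Klf2 1.65-fold lower (-0.72 ± 0.22, adjusted p = 0.0173). Sesn1 was 1.34-fold lower (-0.43 ± 0.14, adjusted p = 0.0265) and Rb1cc1 1.25-fold lower (-0.32 ± 0.12, adjusted p = 0.0464). Ranges were apart for Sesn1 and Txnip only, and over all genes for 13.4% lower and 14.0% higher. With the pool as a block Foxo1 (-0.30, adjusted p = 0.00257) and Foxo3 (-0.32, adjusted p = 0.000904) were called lower too, against 0.0658 and 0.086 without it, and the blocked fit called 29.4% of all genes lower and 21.5% higher. The remaining 4 genes had values of -0.14 for Klf6, 0.07 for Btg1, 0.03 for Btg2 and 0.25 for Pik3ip1, and CPM without TMM factors put Btg1 (483 against 525) and Btg2 (1441 against 1601) on the lower side in AppSAA mice. The Klf2 call was lost without the WT mouse of pool 1 (log2 fold change -0.50) or the AppSAA mouse of pool 2 (-0.55). Without the cells of cluster 3 it was lost as well (0.05). Btg2 (0.82), Klf6 (0.38) and Btg1 (0.30) were then called higher in AppSAA mice, where 18.9% of all genes were. The Sesn1 call was lost without the WT mouse of pool 3 (-0.34) and in cells with 1000 to 25000 UMIs (-0.37, adjusted p = 0.0652), among others, and that of Rb1cc1 was lost when any 1 of 13 mice was left out and with DESeq2 (adjusted p = 0.0525) and limma-voom (0.0535).

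Under ATV:4D9 the genotypes differed in 3 genes. Pik3ip1 was 3.22-fold higher in AppSAA mice (1.69 ± 0.16, adjusted p = 5.14e-07) and Btg1 1.37-fold higher (0.46 ± 0.10, adjusted p = 0.00377), both without overlap, while 7.84% of all genes were called higher and the ranges of 8.72% lay higher and of 6.18% lower without overlap. Txnip was 1.23-fold lower (-0.30 ± 0.08, adjusted p = 0.0217) with overlapping ranges, where 3.98% of all genes were called lower, and its call was lost without the WT mouse of pool 2 (-0.23) or 4 (-0.29) or the AppSAA mouse of pool 3 (-0.29). With the pool as a block Sesn1 was also lower (-0.27, adjusted p = 0.00427), in a fit that called 14.4% of all genes lower and 17.0% higher. Foxo1, Foxo3 and Rb1cc1 stood at -0.01, -0.05 and -0.04. Klf2, Klf6 and Btg2 stood at -0.36, 0.12 and 0.14, and for Klf6 CPM without TMM factors gave 177 in AppSAA and 180.1 in WT mice, the other order.

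The change with ATV:4D9 differed between the genotypes for Pik3ip1, whose fall was 1.44 ± 0.22 log2 units smaller in AppSAA than in WT mice (interaction, adjusted p = 0.000309). In CPM over all cells, all 10 interactions were above 0. Those other than Pik3ip1 ran from 0.11 (Btg2) to 0.39 (Btg1) and were not called. The median was 0.29 against 0.04 over all genes. Over all genes 3.79% had a called interaction above 0 and 5.35% below. With the pool as a block 6 were called, with Btg1 at 0.40 (adjusted p = 0.00148), Rb1cc1 at 0.28 (0.0153), Txnip at 0.35 (0.0225), Foxo1 at 0.30 (0.0405) and Foxo3 at 0.27 (0.0476) added, where the blocked fit called 16.9% of all genes above 0 and 13.6% below.

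Counted per cell, 9 of the 10 genes were not called for ATV:4D9 against ATV:ISO in the fit without the pool as a block. With the block 3 were lower and 2 higher in WT mice, against 4.26% and 78.5% of all genes. In AppSAA mice 5 were lower and 2 higher with it, against 6.91% and 67.7%. The values that follow are from the fit without the block. The median gene of the whole table had 0.79 more log2 UMIs per cell with ATV:4D9 in WT mice and 0.47 more in AppSAA mice, and 68.2% and 52.1% of all genes were called higher against 2.35% and 3.19% lower. The 10 genes stayed near 0, with medians of -0.08 and -0.13. The exception was Pik3ip1. It went from 0.0397, 0.0698, 0.0633 and 0.0643 UMIs per cell in WT mice given ATV:ISO to 0.0140, 0.0172, 0.0219 and 0.0215 with ATV:4D9, which is 3.19-fold lower without overlap (-1.67 ± 0.23, adjusted p = 1.47e-06). In AppSAA mice it went from 0.0687, 0.0769, 0.0926 and 0.0930 to 0.0366, 0.0571, 0.0729 and 0.0560 UMIs per cell, 1.50-fold lower with overlapping ranges (-0.58 ± 0.21, adjusted p = 0.0242). That AppSAA call was lost without the ATV:ISO mouse of pool 3 (-0.52) or 4 (-0.52) or the ATV:4D9 mouse of pool 1 (-0.42), and in cells with 1000 to 25000 UMIs (-0.48, adjusted p = 0.0504).

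For the other 9 genes the UMIs per cell with ATV:4D9 and ATV:ISO overlapped in both genotypes, where over all genes the ranges lay apart for 1.96% lower and 62.1% higher in WT mice and for 2.57% and 50.5% in AppSAA mice. Foxo1 had 0.157, 0.204, 0.229 and 0.256 UMIs per cell in WT mice given ATV:ISO and 0.136, 0.185, 0.227 and 0.229 with ATV:4D9, lower in each pool by less than the pools differed. Btg2 had 12.004, 11.8, 15.3 and 16.3 UMIs per cell with ATV:ISO and 12.4, 14.1, 20.7 and 20.5 with ATV:4D9, higher in each pool. The log2 fold changes per cell in WT mice ran from -0.21 (Rb1cc1) to 0.29 (Btg2) over these 9, and those of Txnip (0.22), Klf6 (0.07), Btg1 (0.13) and Btg2 (0.29) lay above 0, against the direction in CPM. In AppSAA mice they ran from -0.28 (Rb1cc1) to 0.21 (Txnip), with Txnip, Btg1 and Btg2 above 0. With the pool as a block Foxo3 (adjusted p = 0.0206) and Rb1cc1 (0.00517) were called lower and Txnip (0.0363) and Btg2 (0.0107) higher in WT mice. In AppSAA mice the block called Foxo1 (0.0276), Foxo3 (0.00142), Sesn1 (0.00199) and Rb1cc1 (0.000509) lower and Txnip (0.035) and Btg1 (0.0296) higher.

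**Figure D2:**
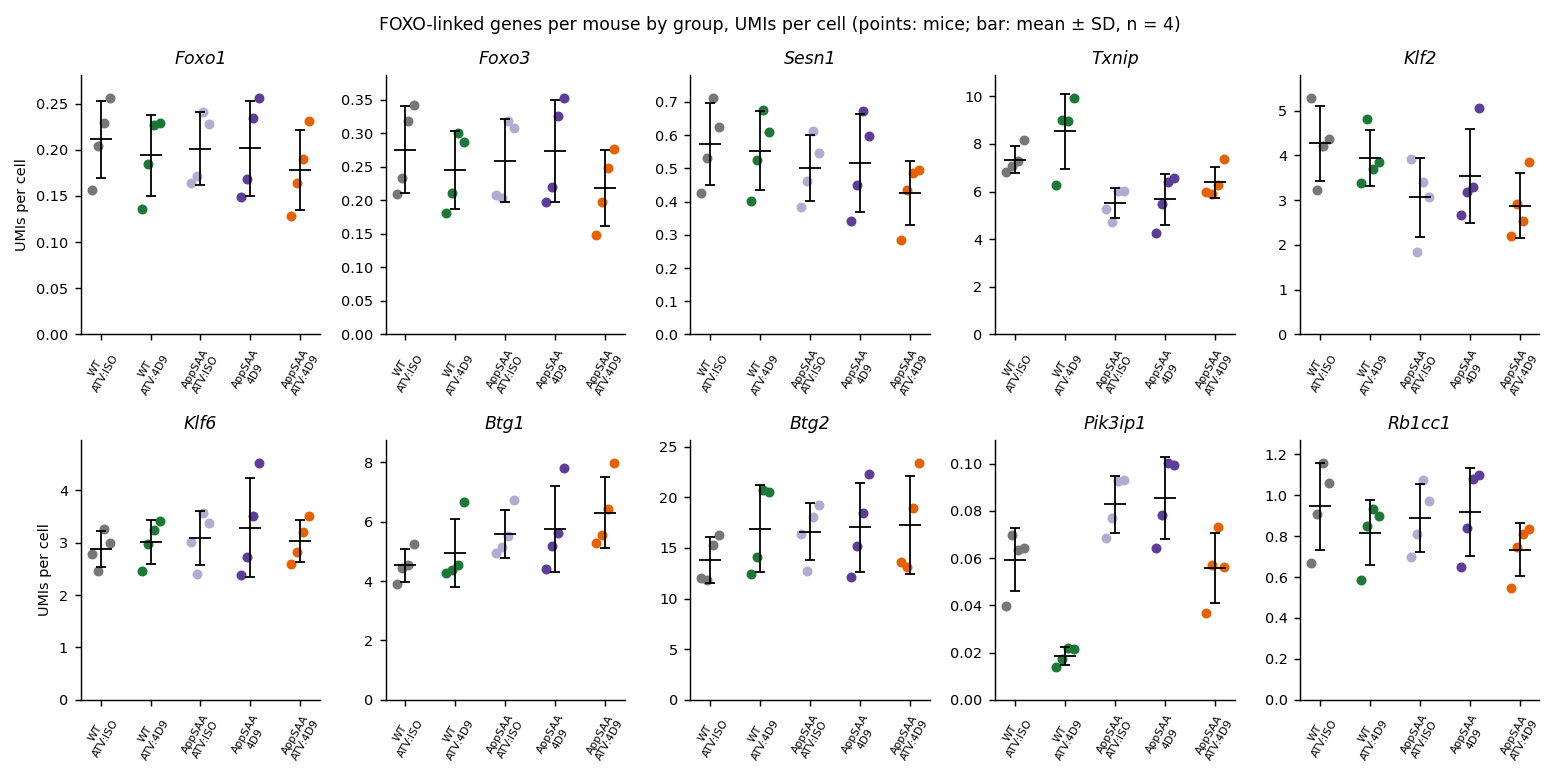
UMIs per cell of each of the 10 genes in every mouse (points, 4 per group) with the group mean ± SD, each panel with its own linear axis. The groups overlap in 9 panels for ATV:4D9 against ATV:ISO in WT mice, and Pik3ip1 falls from 0.0397 to 0.0698 down to between 0.0140 and 0.0219 UMIs per cell.

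The remaining contrasts were also fitted per cell. ATV:4D9 against 4D9 in AppSAA mice called Pik3ip1 lower (-0.63 ± 0.21, adjusted p = 0.0173), where 3.74% of all genes were lower and 49.0% higher and the median gene had risen by 0.42. That call was lost without the 4D9 mouse of pool 3 (-0.54) or the ATV:4D9 mouse of pool 1 (-0.47) and in cells with 1000 to 25000 UMIs (-0.47, adjusted p = 0.059), and the block added Foxo1 (adjusted p = 0.04), Foxo3 (0.000159), Sesn1 (0.00107) and Rb1cc1 (0.000165) as lower, where the blocked fit called 7.75% of all genes lower and 64.7% higher. 4D9 against ATV:ISO called none of the 10, with values from 0.00 (Foxo1) to 0.21 (Klf2), against 0.0% of all genes in either direction and 48 at an unadjusted p under 0.05. AppSAA against WT under ATV:ISO called Txnip lower (-0.41 ± 0.14, adjusted p = 0.0368), where 1.49% were lower and 22.9% higher, and the call was lost when any 1 of 5 mice was left out (WT of pools 2, 3 and 4, AppSAA of pools 1 and 2). Under ATV:4D9 it called Pik3ip1 2.98-fold higher (1.57 ± 0.23, adjusted p = 0.000153), where 2.43% were lower and 3.53% higher. The block added Sesn1 (0.0227) as lower and Btg1 (0.00121), Btg2 (0.0226) and Pik3ip1 (0.000688) as higher under ATV:ISO, and Sesn1 (0.000167) and Txnip (0.00148) as lower and Btg1 (0.000554) as higher under ATV:4D9. These blocked fits called 5.48% of all genes lower and 39.2% higher under ATV:ISO, and 22.6% and 8.36% under ATV:4D9. The interaction of Pik3ip1 was 1.09 ± 0.31 per cell (adjusted p = 0.0199), where 15.6% of all genes had a called interaction below 0 and 0.27% above, and it was lost without the AppSAA mouse of pool 3 given ATV:4D9 (0.94, adjusted p = 0.0522).

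**Figure D3:**
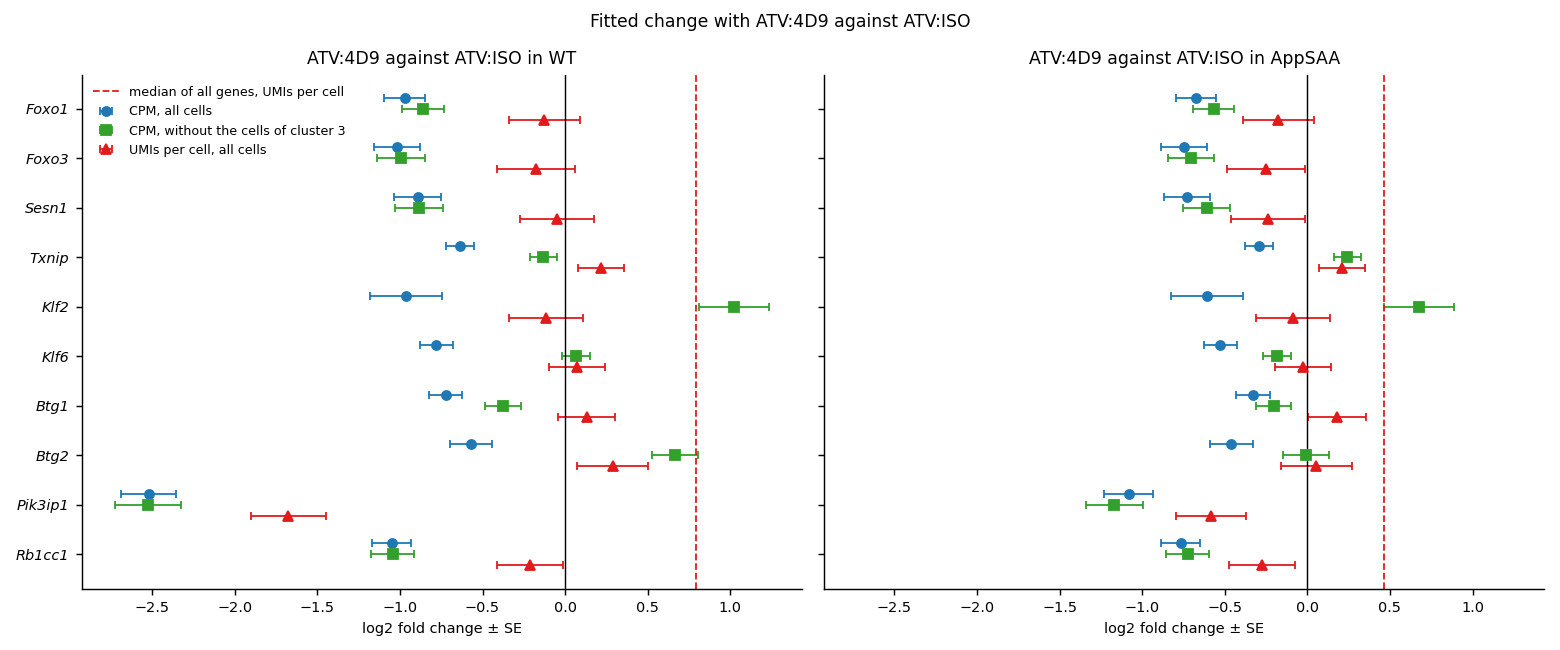
Log2 fold changes (points) with their SE (bars) of the 10 genes for ATV:4D9 against ATV:ISO, in CPM over all cells, in CPM without cluster 3 and in UMIs per cell, with dashed lines at the median of all genes per cell. In CPM all points are below 0. Per cell Txnip, Klf6, Btg1 and Btg2 in WT mice and Txnip, Btg1 and Btg2 in AppSAA mice are above 0, and without cluster 3 Klf2, Klf6 and Btg2 in WT mice and Txnip and Klf2 in AppSAA mice are above 0.

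The levels of the 10 genes differed between clusters, and the part of the cluster shares in the sums per mouse was not tested. Levels by cluster are a description without a test, because the clusters were made from the expression of the cells. Clusters 0 and 3, the bulk of the cells given ATV:ISO in WT mice, lay close in Foxo1 (18.6 and 20.9 CPM), Foxo3 (25.6 and 24.5), Sesn1 (58.3 and 52.9) and Rb1cc1 (94.2 and 87.2), as means over the 20 mice. By their means clusters 1, 2, 4 and 5 held less of these, with Foxo1 at 11.3 to 14.2 CPM and Sesn1 at 29.1 to 32.2 CPM. Within mice Foxo1 and Foxo3 were less uniform, with cluster 1 above cluster 0 in 3 and 5 of 16 mice and below it in the rest. Sesn1 and Rb1cc1 were lower in clusters 1, 2, 4 and 5 than in cluster 0 in each mouse that had enough cells of both, which were 16, 20, 16 and 17 mice.

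Cluster 3 stood apart in the other genes. Klf2 was at 1051 CPM in cluster 3 and at 63.5 CPM in cluster 0, a median ratio within mice of 4.10 log2 units. Btg2 was at 3021 against 518 CPM, Klf6 at 503 against 138 CPM, Txnip at 1027 against 487 CPM and Btg1 at 716 against 365 CPM, and all 5 were higher in cluster 3 in 20 of 20 mice. For Txnip, Klf6 and Btg2 cluster 3 lay above every other cluster without overlap, while for Klf2 (627 to 1785 CPM) it overlapped cluster 1 (74.6 to 754 CPM). The list of 15 genes called immediate early genes here also holds the heat shock genes Hspa1a and Hspa1b. Tissue dissociation can raise the genes of this list. Their sum was 28507 CPM in cluster 3, 4312 CPM in cluster 0 and 9510 to 12912 CPM in the other 4 clusters. Their part in these levels was not tested. Pik3ip1 followed neither pattern, with means over 16 to 20 mice of 9.33 CPM in cluster 1, 6.84 in cluster 5, 6.04 in cluster 0 and 5.21 in cluster 3, and 2.03 and 2.23 in clusters 2 and 4. Its order turned with the group, since in AppSAA mice cluster 5 lay above cluster 1 with ATV:ISO (11.2 against 8.89 CPM) and below it with ATV:4D9 (5.28 against 13.5 CPM). Cluster 4 had the highest sum of the 16 cell cycle genes (3356 CPM, against 158 to 773 in the others).

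UMIs per cell changed the order for some genes, since the clusters differ in depth, from 7632 UMIs per cell in cluster 0 to 20599 in cluster 4. The mean of Foxo1 over the mice with enough cells was highest in cluster 4 (0.234 UMIs per cell) and lower in cluster 0 (0.163), and within mice cluster 4 lay above cluster 0 in 14 of 16 per cell and below it in 15 of 16 in CPM. Sesn1 and Rb1cc1 likewise peaked in cluster 4 (0.663 and 0.991). Klf2 (10.9), Klf6 (5.30), Txnip (10.8), Btg1 (7.49) and Btg2 (31.8) were highest in cluster 3 per cell as well, and the mean of Pik3ip1 over these mice was highest in cluster 1 (0.113) and lowest in clusters 2 and 4 (0.0319 and 0.0460), although in AppSAA mice given ATV:ISO it was higher in cluster 5 (0.132) than in cluster 1 (0.114).

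**Figure D4:**
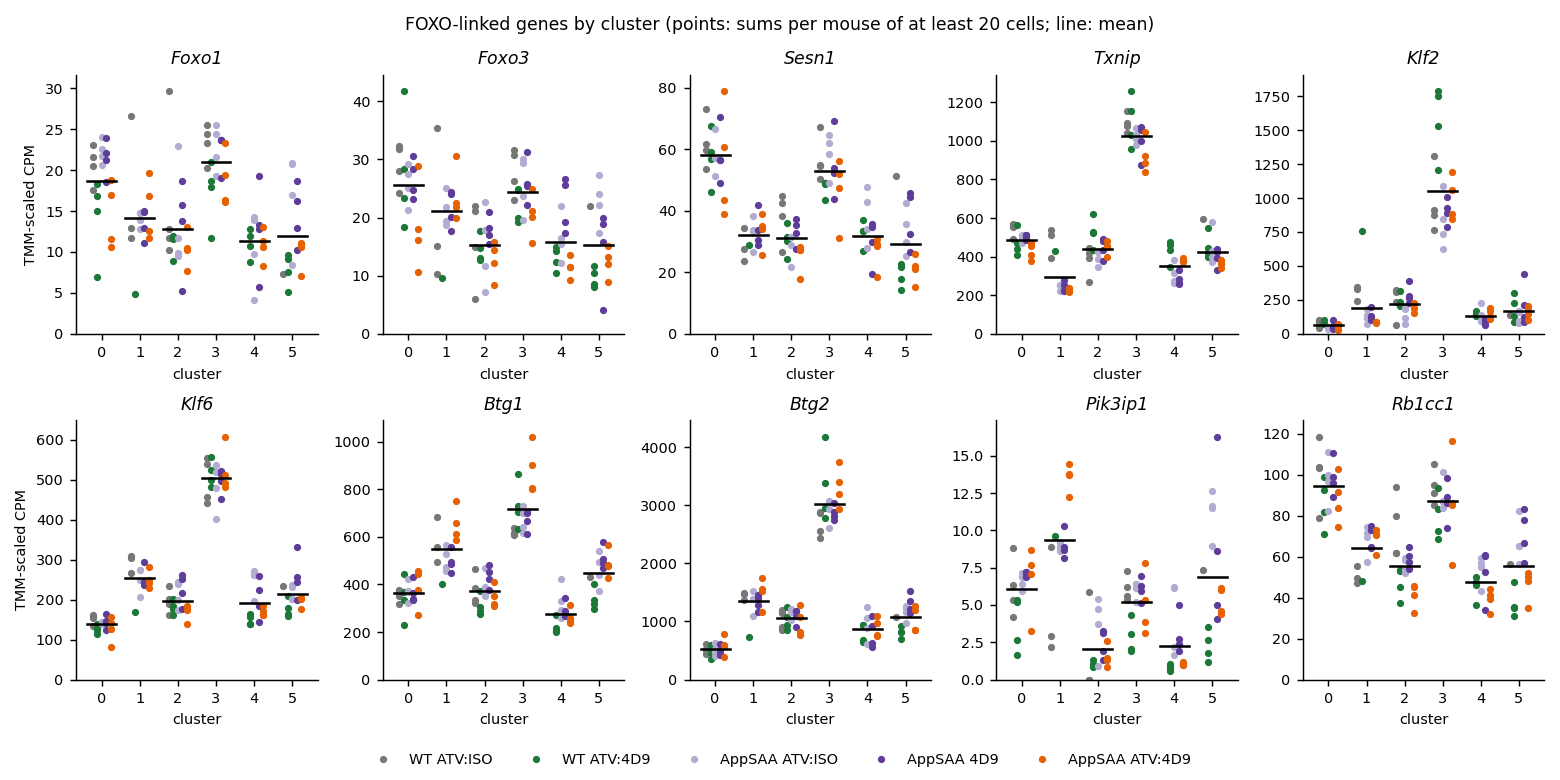
CPM of each of the 10 genes in the authors' clusters 0 to 5, 1 point per mouse with at least 20 cells in the cluster, each panel with its own linear axis, with a line at the mean over the mice. Cluster 3 lies above all other clusters without overlap for Txnip, Klf6 and Btg2 and overlaps cluster 1 for Klf2, while clusters 0 and 3 have the highest means of Foxo1, Foxo3, Sesn1 and Rb1cc1. Per cell the order differs for these 4 genes.

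With the cells of cluster 3 left out, 29.5% of 13836 genes were called lower and 33.5% higher with ATV:4D9 in WT mice, and 25.7% and 28.3% in AppSAA mice. Foxo1 (-0.86), Foxo3 (-0.99), Sesn1 (-0.89), Pik3ip1 (-2.53) and Rb1cc1 (-1.04) remained lower with ATV:4D9 in WT mice, as did Btg1 (-0.38, adjusted p = 0.00487). Klf2 was then called higher (1.02, adjusted p = 0.000326), as was Btg2 (0.66, adjusted p = 0.00034). Klf6 (0.07, adjusted p = 0.522) and Txnip (-0.13, adjusted p = 0.166) were not called. Cluster 3 had held 35.8% of the WT cells with ATV:ISO and 4.56% with ATV:4D9. Cluster 0, where Klf2 and Btg2 had their lowest means (63.5 and 518 CPM), held 60.4% and 3.11%. These values therefore do not tell a change in the mix of cells from a change in each cell. In AppSAA mice Foxo1 (-0.57), Foxo3 (-0.70), Sesn1 (-0.61), Pik3ip1 (-1.17) and Rb1cc1 (-0.72) remained lower. Txnip (0.24, adjusted p = 0.0171) and Klf2 (0.67, adjusted p = 0.011) were called higher, and Klf6 (-0.19, adjusted p = 0.0693), Btg1 (-0.20, 0.116) and Btg2 (-0.01, 0.957) were not called. The same limit holds there, since cluster 3 had held 25.1% of the AppSAA cells with ATV:ISO and 3.78% with ATV:4D9. Against 4D9 24.9% of genes were called lower and 28.0% higher in that fit, and 9.42% of interactions below 0 and 5.1% above. Under ATV:ISO the genotype difference of Klf2 went from -0.72 to 0.05 (adjusted p = 0.884), while those of Txnip (-0.69), Sesn1 (-0.56) and Rb1cc1 (-0.38) remained, where 16.7% of genes were called lower. Btg2 (0.82, adjusted p = 9.4e-05), Klf6 (0.38, 0.0016) and Btg1 (0.30, 0.0361) were then called higher in AppSAA mice, where 18.9% of genes were. The summed immediate early genes over all cells were lower in CPM with ATV:4D9 as well. The sums were 9597 to 11227 CPM against 12227 to 15725 CPM in WT mice. In AppSAA mice they were 10560 to 12060 CPM against 12411 to 17373 CPM. By gene, the share of this list called lower in CPM was near that of all genes in both genotypes, as given below. Counted per cell, more of its genes were called higher than lower.

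Contrasts within a cluster compare cells of 1 cluster, but the mix of cells can still differ between mice. Over the sums of cluster 5 the 16 cell cycle genes ran from 164 to 1289 CPM, and over those of cluster 2 from 323 to 1088 CPM. In cluster 4 the border macrophage markers ran from 9.13 to 215 CPM. The part of such differences in the calls was not tested. In the contrasts given here 0 to 5 of the 10 genes were called and up to 6 with the block, and the sums compared rest on as few as 23 cells. These contrasts are ATV:4D9 against ATV:ISO and the genotypes under 1 antibody, in some of the clusters. They were fitted in CPM only, so a lower or higher level within a cluster is a share of its RNA. Changes per cell within clusters were not tested. Further contrasts with enough sums, among them those with 4D9 and the interaction, are not reported here. In cluster 0 ATV:4D9 called none in WT mice, where 1.47% of 11691 genes were called in either direction, and none in AppSAA mice, where 0.667% were. The genotype contrast under ATV:ISO called none there either, against 0.274%. At an unadjusted p under 0.05 there were 4, 3 and 1 of the 10, against 1521, 1172 and 528 of the 11691 genes. In fits that called 8.96%, 5.27% and 4.61% of all genes, the block called Txnip (-0.21, adjusted p = 0.0129), Klf6 (-0.28, 0.0208) and Rb1cc1 (-0.25, 0.0346) lower in WT mice, Txnip (-0.26, 0.00644) lower in AppSAA mice and Klf2 (-0.76, 0.000165) lower by genotype. In cluster 3 Klf2 rose 0.68 ± 0.16 log2 units with ATV:4D9 in WT mice (adjusted p = 0.0103), from 1311, 761, 909.5 and 873 CPM to 1531, 1785, 1749.7 and 1203 CPM, with overlapping ranges. Pik3ip1 fell there (-1.09 ± 0.29, adjusted p = 0.0212), from a mean of 6.09 to 2.82 CPM that rests on 2 to 9 UMIs per sum with ATV:4D9. These stand against 6.17% of 11628 genes. In AppSAA mice Btg1 rose in cluster 3 (0.37 ± 0.09, adjusted p = 0.0241), from 642, 729, 617 and 699 CPM to 1019, 801, 805 and 901 CPM without overlap, where 4.33% were called. The genotype contrast in cluster 3 called none, against 0.189%, with none of the 10 and 451 of all genes at an unadjusted p under 0.05. The Klf2 call was lost without pool 2 (0.50) or 3 (0.60), that of Pik3ip1 without pool 1 (-1.16), 2 (-0.90) or 3 (-0.91) and that of Btg1 without pool 1 (0.27), 3 (0.36) or 4 (0.36). The block added Foxo1 (-0.43) and Rb1cc1 (-0.27) as lower and Btg1 (0.22) and Btg2 (0.27) as higher in WT mice, and Sesn1 (-0.30) as lower in AppSAA mice, where 17.5% and 12.6% of all genes were called.

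Cluster 1, which was scarce in WT mice and held 38.3% of the cells of AppSAA mice given ATV:ISO, ran the other way for Pik3ip1. There Pik3ip1 rose with ATV:4D9 in AppSAA mice, from 8.59, 8.82, 9.20 and 8.96 CPM to 13.8, 14.4, 13.7 and 12.2 CPM (0.60 ± 0.12, adjusted p = 0.0115), where 1.34% of 13045 genes were called in either direction. The gene was higher in 4 of 4 pools and the groups did not overlap, while over all cells it was 2.12-fold lower. By genotype under ATV:ISO, Txnip (-0.98 ± 0.12, adjusted p = 0.0003) and Klf2 (-1.26 ± 0.25, adjusted p = 0.014) were lower in AppSAA mice in cluster 1, where 1.23% were called. Txnip read 514, 394 and 539.8 CPM in the 3 WT mice with enough cells, the least with 27 cells, and 253, 219.6, 252 and 253 CPM in AppSAA mice. Leaving out pool 2 (0.55), 3 (0.61) or 4 (0.66) ended the Pik3ip1 call, and leaving out pool 2 (-1.01) or 4 (-1.13) ended that of Klf2. The block also called Btg1 higher with ATV:4D9 (0.37, adjusted p = 0.0044), against 7.25% of all genes.

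Rb1cc1 was lower with ATV:4D9 in cluster 2 in WT mice (-0.66 ± 0.17, adjusted p = 0.023) and in AppSAA mice (-0.45 ± 0.14, adjusted p = 0.032), where 5.88% and 13.2% of 9618 genes were called, and each call was lost when any 1 of 3 pools was left out (-0.58 to -0.75 in WT mice, -0.33 to -0.48 in AppSAA mice). Pik3ip1 did not pass the filter on low counts in cluster 2 with sums of at least 20 cells. With sums of at least 50 cells it was lower in AppSAA mice (-1.38 ± 0.43, adjusted p = 0.0389), where 11.8% of 11644 genes were called, on 1 to 10 UMIs per ATV:ISO sum and with overlapping ranges. Cluster 4 gave Foxo3 (-0.61 ± 0.21, adjusted p = 0.0409), Klf6 (-0.56 ± 0.13, adjusted p = 0.0025), Pik3ip1 (-1.60 ± 0.49, adjusted p = 0.0198) and Rb1cc1 (-0.48 ± 0.15, adjusted p = 0.024) as lower in AppSAA mice, against 24.5% of 11342 genes. Klf6 went from 271, 196, 261 and 262 CPM to 161, 161, 173 and 184 CPM in cluster 4 without overlap, and of these 4 it alone was called whichever pool was left out. The Foxo3 call was lost without pool 2 (-0.64), 3 (-0.65) or 4 (-0.54), that of Pik3ip1 without pool 1 (-1.37) or 2 (-1.32) and that of Rb1cc1 without pool 3 (-0.52) or 4 (-0.44). The Pik3ip1 value rests on 2 to 4 UMIs per ATV:ISO sum.

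Cluster 5 gave 5 genes as lower in CPM with ATV:4D9 in AppSAA mice, against 27.0% of 10958 genes called in either direction. The sums of this cluster, over all groups, ran from 10260 to 20807 UMIs per cell, and no fit per cell was made there. Foxo1 went from 8.40, 20.8, 17.0 and 20.9 CPM to 7.10, 11.1, 10.6 and 10.8 CPM (-0.92 ± 0.21, adjusted p = 0.0024), with the ATV:ISO mouse of pool 1 inside the other range on 4 UMIs. Foxo3 went from 27.3, 24.1, 22.1 and 17.3 CPM to 8.85, 11.99, 13.2 and 15.1 CPM (-0.90 ± 0.21, adjusted p = 0.0027) and Pik3ip1 from 12.6, 11.7, 8.98 and 11.5 CPM to 4.39, 5.996, 6.15 and 4.59 CPM (-1.08 ± 0.27, adjusted p = 0.0039), both without overlap. Sesn1 (-0.77 ± 0.19, adjusted p = 0.0039) and Rb1cc1 (-0.64 ± 0.15, adjusted p = 0.003) were lower as well, and both calls were lost without pool 3 (-0.63 and -0.53). Under ATV:4D9 Btg1 (0.52 ± 0.12, adjusted p = 0.009) and Pik3ip1 (1.30 ± 0.32, adjusted p = 0.011) were higher in AppSAA than in WT mice in cluster 5, against 6.43%, while no gene of the 10 was called by genotype in cluster 2 (2.07%) or cluster 4 (2.76%) under ATV:4D9. Leaving out pool 2 (0.53) or 3 (0.48) ended that Btg1 call and pool 2 (1.34) or 4 (1.12) that of Pik3ip1. With the block, Txnip in cluster 2 was higher with ATV:4D9 in WT mice (0.40, adjusted p = 0.0393), against 11.0% of all genes. In AppSAA mice the block gave Klf6 in cluster 2 (-0.36, adjusted p = 0.00271) and Txnip in cluster 5 (-0.32) as lower with ATV:4D9, and in cluster 4 Txnip (0.30) as higher and Btg1 (-0.31) as lower, in fits that called 24.8%, 34.3% and 30.1% of all genes in clusters 2, 5 and 4. By genotype under ATV:4D9 the block called Sesn1 lower in cluster 2 (-0.29, adjusted p = 0.00819), Sesn1 (-0.31, 0.0119) and Rb1cc1 (-0.21, 0.0384) lower and Btg1 (0.24, 0.0213) higher in cluster 4, and Txnip (-0.32, 0.0422) lower and Btg2 (0.33, 0.0232) and Rb1cc1 (0.30, 0.0464) higher in cluster 5, against 7.38%, 9.79% and 14.7% of all genes.

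**Figure D5:**
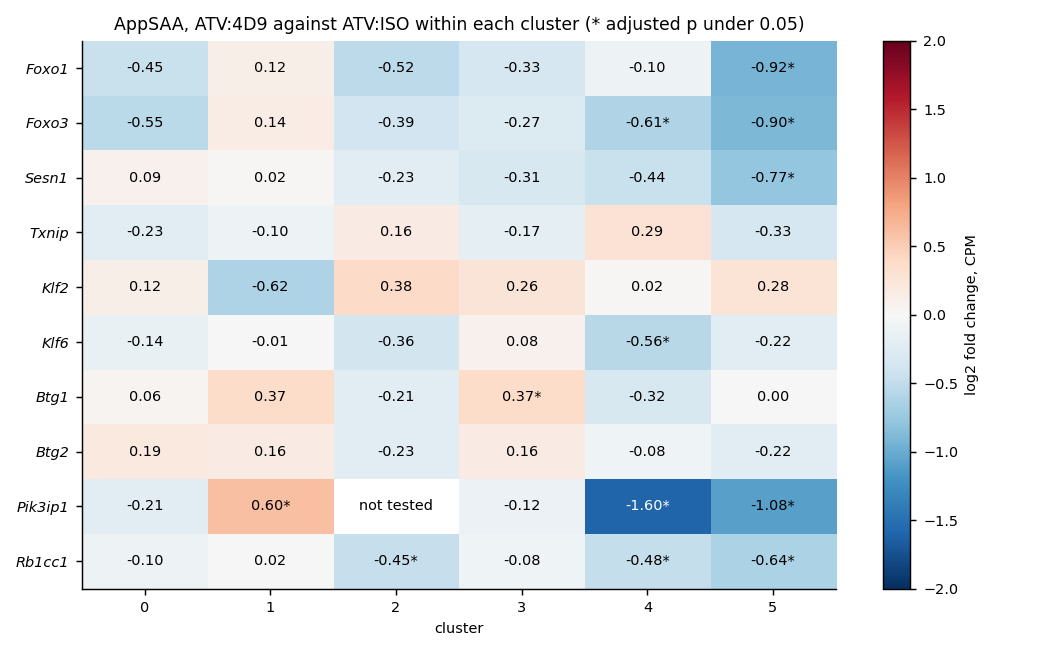
Heat map of the log2 fold changes in CPM of the 10 genes for ATV:4D9 against ATV:ISO in AppSAA mice within each of clusters 0 to 5, with an asterisk where the adjusted p is under 0.05. Pik3ip1 is at 0.60 in cluster 1 and at -1.60 and -1.08 in clusters 4 and 5, and cluster 0 has no asterisk.

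The other genes of these pathways, in 9 lists of 138 genes, are described by counts and medians in CPM for ATV:4D9 against ATV:ISO, first in WT and then in AppSAA mice. They are read against the shares of all genes in CPM, which were 32.5% lower and 30.8% higher in WT mice and 27.1% and 27.9% in AppSAA mice, with medians of -0.05 and -0.03. Of 28 tested genes of the PI3K, AKT and FOXO axis, 19 were lower and 4 higher in WT mice (median -0.43), and 13 and 4 in AppSAA mice (-0.29). The insulin receptor Insr (-1.14) and the FOXO member Foxo4 (-1.12) fell most there, and the mTORC1 activator Rheb (0.59) and the kinase Sgk1 (0.35) rose most, the last of which was not called in AppSAA mice (0.11). Of 20 other FOXO targets 14 were lower and 3 higher in WT mice (median -0.47), and 12 and 3 in AppSAA mice (-0.43). The ubiquitin ligase gene Fbxo32 (-2.39) and the mTORC1 inhibitor Ddit4 (-2.07) fell most, and the cell cycle inhibitor Cdkn1a (1.86) and the stress gene Gadd45b (1.46) rose, in AppSAA mice by -1.49, -0.98, 1.37 and 0.74. Fbxo32 was lower per cell too, at -1.56 in WT and -0.98 in AppSAA mice.

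Of the 12 partners of Rb1cc1 in autophagy initiation, 10 were lower and 1 higher in WT mice (median -0.58) and 9 and 1 in AppSAA mice (-0.36). The kinase Ulk1 (-1.44) and Atg14 (-1.13) fell most and Becn1 (0.23) rose. Of 14 other BTG/TOB proteins and CCR4-NOT subunits 6 were lower and 3 higher in WT mice and 5 and 3 in AppSAA mice, with medians of -0.09 and -0.07 near those of all genes, and with Tob1 (-0.98) and Tob2 (-0.85) lower and the subunit genes Cnot9 (1.29) and Cnot6 (0.61) higher. Of 9 other Krüppel-like factors 5 were lower and 2 higher (median -0.51) and 4 and 1 in AppSAA mice (-0.26), with Klf9 (-2.39) and Klf4 (-1.34) at one end and Klf10 (1.22) and Klf11 (0.69) at the other. Klf9 was lower per cell as well, at -1.55 and -1.05.

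Of 11 thioredoxin partners and arrestins 5 were lower and 4 higher in WT mice and 3 and 3 in AppSAA mice, with medians of -0.04 and -0.16 near those of all genes. The arrestins Arrdc3 (-1.24) and Arrdc2 (-1.12) fell with Txnip, whereas thioredoxin, Txn1 (1.68), and its reductase Txnrd1 (1.31) rose. Of the 8 sestrin partners in GATOR1 and GATOR2, 3 were lower and 2 higher in WT mice and 2 and 2 in AppSAA mice, shares and medians (-0.08 and -0.09) near those of all genes. Wdr59 (-0.59) and Nprl2 (-0.52) were the lowest and Sec13 (0.32) and Seh1l (0.26) the highest in WT mice, and per cell Nprl2 was called higher instead (0.31). All 16 cell cycle genes rose in both genotypes, with a median of 3.74 in WT mice and 2.68 in AppSAA mice, and Ccne1 (4.85) and Ccne2 (4.83) rose most. Of 15 immediate early genes 5 were lower and 1 higher in WT mice (median -0.32), and 4 and 1 in AppSAA mice, with Jund (-0.96) and Jun (-0.76) lower and Ier2 (0.36) higher in WT mice.

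Per cell the counts of these lists turned with those of the whole table, in which 68.2% of genes were higher and 2.35% lower in WT mice and 52.1% and 3.19% in AppSAA mice. The median per cell was below that of all genes (0.79 and 0.47) for the PI3K, AKT and FOXO axis (0.40 and 0.20), the other FOXO targets (0.37 and 0.07) and the Rb1cc1 partners (0.27 and 0.13). Of the PI3K, AKT and FOXO axis 0 genes were lower and 13 higher in WT mice, and 0 and 12 in AppSAA mice. Of the other FOXO targets 4 were lower and 9 higher, and 4 and 6 in AppSAA mice. The Rb1cc1 partners had 0 lower and 3 higher, and 0 and 1 in AppSAA mice. The BTG/TOB and CCR4-NOT genes had 0 and 11, and 0 and 7. The other Krüppel-like factors had 1 and 5, and 1 and 3. The thioredoxin partners and arrestins had 0 and 8, and 0 and 7, and the sestrin partners 0 and 7, and 0 and 3. The immediate early genes had 0 and 9 in WT mice and 2 and 3 in AppSAA mice, and the cell cycle genes stayed 16 of 16 higher in both. Of the genes named above as lower in CPM in WT mice, Fbxo32, Ddit4 and Klf9 were lower per cell too, Nprl2 was higher, and Insr, Foxo4, Ulk1, Atg14, Tob1, Tob2, Klf4, Arrdc2, Arrdc3, Wdr59, Jund and Jun were not called. In 4D9 against ATV:ISO no gene of any list was called.

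The genes most like 8 of the 10 over the 20 mice, by Pearson's r of log2 CPM among 8024 genes with a mean of at least 10 CPM, were as follows. Foxo1 was followed most closely by Rin3 (0.989), Foxo3 by Ogt (0.993) and Sesn1 by Gab1 (0.982). For Klf2 it was Hps4 (0.922), for Klf6 Ptpro (0.958), for Btg1 Pbxip1 (0.942) and for Btg2 Vamp2 (0.938). Pik3ip1 was nearest to Fcgr2b (0.983) and Arid5b (0.976), which were also the next nearest to Btg1 (0.927 and 0.920). Among the 10, the 45 pairs had a median r of 0.766 (0.250 to 0.983), and after group means were removed the median was 0.306, from -0.245 for Klf2 with Pik3ip1 to 0.934 for Sesn1 with Rb1cc1. The mice share groups, pools and depth, so these are descriptions without a test.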

How the data were processed

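Single-cell RNA-seq of 20 mice was used. Per the methods and the submitters' notes, the authors mapped reads with Cell Ranger 6.1.1 on mm10, split cells by mouse with CellPlex tags and clustered them with Seurat v4. They deposited UMI counts per gene and cell, not normalized, and per-cell annotation with mouse, group, pool, cluster (resolution 0.2) and mitochondrial percent. The deposited percent ran from 1.01 to 2.09 as the median over the cells of a mouse and was used for no test. Which cells were removed before deposit is not given in the sources used here, all deposited cells were kept, and no doublet caller was run.

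Each mouse gave 1 sum of counts, and a further sum for each cluster with at least 20 of its cells, tested where a group had 3 such sums. Groups were compared in R 4.3.3 with edgeR 4.0.16, using filterByExpr, TMM and the quasi-likelihood test, with p-values adjusted by Benjamini-Hochberg over the full set of genes and called at 0.05. All 20 mice entered 1 fit. The SE given with a fold change is the absolute log2 fold change divided by the square root of the F statistic of the quasi-likelihood test. For UMIs per cell the number of cells replaced the library size. Sums within clusters were fitted in CPM only. The fit was tested on simulated counts of independent mice, with no effect of the pool and with few genes changed. The data differ from that simulation in both respects, so it does not cover them there. Alternatives were size factors by RLE, DESeq2 1.42.0, limma-voom 3.58.1, no filter on low counts, the 2 groups compared alone, cells with 1000 to 25000 UMIs, no cluster 3, sums of at least 50 cells, each mouse or pool left out, and the pool as a block. In 40 of 40 pairs of mice of 1 pool, deviations from group means correlated (0.143 to 0.607), so the pool, given in the labels, pairs the mice. CPM without TMM factors was added after the values were seen. The 10 genes, the lists and the tests were chosen with earlier results of these data known. All 10 were named throughout, and of each list the called genes with the largest changes in WT mice, up to 2 each way. Motifs and coordinates come from RefSeq and GENCODE tables of the same build. Sample groups come from the deposited annotation of each cell's mouse. Precision is set by 4 mice per group, and by few UMIs for Pik3ip1. The genes most like Rb1cc1 and Txnip are not reported here.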

Additional observations from a re-analysis of the deposited data

Results flagged for a closer look

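In 3 of 100 sets of 4 mice (10 genes, 5 groups, CPM and UMIs per cell) 1 mouse stood apart from the other 3, where chance marks about 1 in 20 sets. Foxo1 was lowest in the WT mouse of pool 1 given ATV:4D9, at 8.93 CPM against 11.7 to 12.3 CPM in the other 3. Sesn1 was lowest in the AppSAA mouse of pool 1 given ATV:4D9, at 18.7 CPM against 28.2 to 30.0 CPM. Btg1 was highest in the WT mouse of pool 4 given ATV:4D9, at 6.66 UMIs per cell against 4.27 to 4.53.

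Of 20 interactions of genotype and ATV:4D9 looked at, those of Pik3ip1 passed the test, with 1.44 log2 units in CPM (adjusted p = 0.000309) and 1.09 in UMIs per cell (adjusted p = 0.0199, edgeR). The fall was smaller in AppSAA mice on both scales. The shares of clusters differed between the genotypes under ATV:4D9, with cluster 1 holding 0.383% of cells in WT and 13.5% in AppSAA mice and cluster 5 holding 4.21% and 22.4%. In AppSAA mice given ATV:4D9 Pik3ip1 stood at 13.5 CPM in cluster 1 and 5.28 CPM in cluster 5, and with ATV:ISO at 8.89 and 11.2 CPM. The part of these shares in the interaction was not tested.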

How the results depend on the processing

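The limits are these. Each group held 4 mice, Pik3ip1 rested on 63 to 567 UMIs per mouse, and shares of clusters moved with treatment. Sums within clusters held as few as 21 cells, and as few as 23 in the contrasts reported. With RLE size factors, DESeq2 and limma-voom, 69 of 70 results in CPM kept their call, and no called result changed direction. Rb1cc1 by genotype under ATV:ISO lost its call in each (adjusted p = 0.0665, 0.0525 and 0.0535). Results called in neither fit were counted as kept whichever way they pointed. Per cell, no filter on low counts kept 70 of 70, and within clusters RLE size factors kept 147 of 147 and sums of at least 50 cells 108 of 108. The causes of the changes below were not tested, other than what an alternative itself leaves out. CPM without TMM factors reversed no called result.

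Without the cells of cluster 3, the number of the 10 genes called for ATV:4D9 against ATV:ISO went from 10 to 6 lower and from 0 to 2 higher in WT mice, and from 10 to 5 lower and from 0 to 2 higher in AppSAA mice. All genes were then called at 29.5% lower and 33.5% higher in WT mice and 25.7% and 28.3% in AppSAA mice. Against 4D9 it went from 10 to 6 lower and from 0 to 1 higher, by genotype under ATV:ISO from 0 to 3 higher, and in the interaction from 0 to 1 lower and from 1 to 2 higher. All genes stood at 24.9% lower and 28.0% higher against 4D9, 16.7% and 18.9% by genotype, and 9.42% and 5.1% in the interaction. Among results called with or without these cells, those that reversed with ATV:4D9 in WT mice were Klf2 (1.02), Klf6 (0.066) and Btg2 (0.66). By genotype under ATV:ISO they were Klf2 (0.0497) and Klf6 (0.38), and with ATV:4D9 in AppSAA mice Txnip (0.24) and Klf2 (0.67). Against 4D9 they were Txnip (0.23), Klf2 (0.43) and Btg2 (0.0036), and in the interaction Btg2 (-0.67). The interactions of Klf2 (-0.35) and Klf6 (-0.25), called in neither fit, also went below 0. Other changes of direction among results called in neither fit are not listed.

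By genotype under ATV:ISO, no filter on low counts and cells with 1000 to 25000 UMIs each left 2 genes lower in place of 4, while 5.96% and 9.69% of all genes were lower. Under ATV:4D9, the 2 groups alone left 0 lower in place of 1, against 2.46% of all genes. Per cell, cells with 1000 to 25000 UMIs left 0 lower in place of 1 for ATV:4D9 against ATV:ISO and against 4D9 in AppSAA mice, and gave 1 lower in place of 0 by genotype under ATV:4D9, against 4.28%, 4.38% and 14.7% of all genes lower.

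With the pool as replicate block, which pairs the mice, counts in CPM went from 1 to 2 lower by genotype under ATV:4D9 and from 1 to 6 higher in the interaction. Per cell the pairing gave 3 lower and 2 higher with ATV:4D9 in WT mice, 5 lower and 2 higher in AppSAA mice, 5 lower against 4D9, 2 lower and 3 higher by genotype under ATV:ISO, and 2 lower and 2 higher under ATV:4D9. Within clusters the block gave, for ATV:4D9 against ATV:ISO, 3 lower in cluster 0, 1 higher in cluster 2 and 3 lower and 3 higher in cluster 3 in WT mice. In AppSAA mice it gave 1 lower in cluster 0, 2 higher in cluster 1, 2 lower in cluster 2 (2 as well with at least 50 cells per sum, the second being Pik3ip1, tested only there), 1 lower in cluster 3 and 1 higher in cluster 4. By genotype it gave 1 lower in cluster 0 under ATV:ISO, and under ATV:4D9 1 lower in cluster 2, 2 lower and 1 higher in cluster 4 and 1 lower and 4 higher in cluster 5. No called result lost its call under the block.

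Leaving out each mouse in turn gave 1 to 6 genes lower by genotype under ATV:ISO in CPM, 0 to 1 lower under ATV:4D9, 9 to 10 lower with ATV:4D9 in AppSAA mice and 1 to 2 interactions above 0, and 10 lower throughout in WT mice and against 4D9. The shares of all genes in those directions were 9.82% to 15.3%, 1.76% to 4.46%, 23.3% to 27.3%, 2.35% to 5.8%, 28.7% to 32.8% and 22.9% to 26.8%, in that order. Per cell it gave 0 to 1 higher with ATV:4D9 in WT mice, 0 to 1 lower by genotype under ATV:ISO, 0 to 1 lower with ATV:4D9 in AppSAA mice, 0 to 1 lower against 4D9, 0 to 1 lower by genotype under ATV:4D9 and 0 to 1 interactions above 0, with 62.0% to 70.4%, 0.764% to 1.68%, 2.06% to 3.5%, 2.4% to 4.96%, 0.639% to 3.39% and 0.169% to 0.383% of all genes. The Sesn1 call by genotype under ATV:ISO was lost without the WT mouse of pool 3 or the AppSAA mouse of pool 1, 2 or 4, and without the AppSAA mouse of pool 4 given ATV:4D9, with log2 fold changes from -0.34 to -0.43. Leaving out each pool in turn within clusters gave 1 to 2 lower by genotype in cluster 1 and 0 to 1 higher there with ATV:4D9, and in cluster 2 with ATV:4D9 0 to 1 lower and 0 to 1 higher in WT mice and 0 to 1 lower in AppSAA mice. In cluster 3 it gave 0 to 1 lower and 0 to 1 higher in WT mice and 0 to 1 higher in AppSAA mice, in cluster 4 2 to 3 lower and 0 to 1 higher, and in cluster 5 3 to 5 lower with ATV:4D9 and 0 to 1 lower and 0 to 2 higher by genotype under ATV:4D9. Of all genes, called in either direction, these left 0.172% to 1.14% and 0.759% to 1.05% in cluster 1, 2.13% to 3.72% and 4.41% to 11.8% in cluster 2, 2.15% to 5.28% and 1.29% to 2.71% in cluster 3, 14.8% to 20.9% in cluster 4, and 14.2% to 23.2% and 2.07% to 7.57% in cluster 5.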
